A study of Homo sapiens and Mus musculus with 20 samples.

Results

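KDM6A (UTX) occupied 3548 sites in ARP1 myeloma cells that met 3 conditions at once. These were regions precipitated by the KDM6A antibody from KDM6A wild type (WT) cells that overlapped no region of the same antibody from KDM6A knockout (KO) cells. Each also overlapped an HA region of the HA-tagged line that had no counterpart in the HA list of WT cells, and a KDM6A region of KARPAS cells, for which no background list was used. They were taken on chromosomes 1 to 22 and X with an overlap of at least 1 bp, and made up 3.90% of the 90964 KDM6A regions of ARP1 WT and 5.62% of the 63118 regions absent from KO. The sites were thus chosen by the presence of KDM6A, HA and KARPAS regions, and their strength there is a description and supports nothing further.

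ARP1 and KARPAS are human cell lines, both labelled multiple myeloma, a cancer of plasma cells. The KARPAS cells are KDM6A WT by the title of their library. Enriched regions were compared at these sites between ARP1 cells labelled KDM6A knock out, ARP1 cells labelled JmjD-dead, whose titles carry the allele H1146E, and ARP1 cells labelled KDM6A wild type. All 3 genotypes had libraries of input DNA, H3K27ac and H3K27me3, and KO and WT also had H3K4me1. The HA antibody was used on a line titled HA-tagged, which carries the genotype label knock out, and on a WT line without that word in its title. The labels do not say how the tag was introduced, whether a line is 1 clone, or whether JmjD-dead cells carry the allele on a KO background. With 1 library in each group, differences between groups could not be checked against replicates. Intervals are exact Clopper-Pearson 95% intervals, which cover the counting of regions only and treat regions as independent.

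KDM6A removes methyl groups from lysine 27 of histone H3 through its JmjC domain and is a subunit of the KMT2C and KMT2D (COMPASS-like) complexes, which place H3K4me1 at enhancers. Enhancers in use carry H3K27ac together with H3K4me1, while H3K27me3 is the mark laid down by Polycomb complexes at silent genes. Loss of KDM6A is a recurrent event in multiple myeloma.

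In 92 RefSeq promoter windows (GRCh38.p14, 250 bases before to 50 bases after a transcription start) the window itself overlapped a site. The 4 windows printed here belong to the sites with the highest rank in all 3 selecting lists, of those whose sequence can be shown. They mark where at a listed start the protein was found, and a listed start can lie inside its gene. Capitals mark letters searched for on both strands, which are the IRF core AANNGAAA, the AP-1 site TGANTCA, the ETS core CCGGAA, the GC box GGGCGG, the NFY box CCAAT, the E-box CACGTG, the CRE TGACGTCA and the NRF1 site GCGCATGC.

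PPCDC: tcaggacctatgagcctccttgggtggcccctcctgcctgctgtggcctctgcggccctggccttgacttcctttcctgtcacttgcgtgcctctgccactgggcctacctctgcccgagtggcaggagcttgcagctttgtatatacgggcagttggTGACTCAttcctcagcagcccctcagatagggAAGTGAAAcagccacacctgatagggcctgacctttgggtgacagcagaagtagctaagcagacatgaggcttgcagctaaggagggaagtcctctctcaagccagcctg

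KRI1: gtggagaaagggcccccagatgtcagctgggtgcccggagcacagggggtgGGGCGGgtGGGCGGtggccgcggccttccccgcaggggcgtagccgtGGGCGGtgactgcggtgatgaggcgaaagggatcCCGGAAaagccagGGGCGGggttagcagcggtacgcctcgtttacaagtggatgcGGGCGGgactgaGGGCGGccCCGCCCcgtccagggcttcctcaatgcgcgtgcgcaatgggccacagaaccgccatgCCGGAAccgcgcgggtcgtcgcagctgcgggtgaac

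NSMCE3: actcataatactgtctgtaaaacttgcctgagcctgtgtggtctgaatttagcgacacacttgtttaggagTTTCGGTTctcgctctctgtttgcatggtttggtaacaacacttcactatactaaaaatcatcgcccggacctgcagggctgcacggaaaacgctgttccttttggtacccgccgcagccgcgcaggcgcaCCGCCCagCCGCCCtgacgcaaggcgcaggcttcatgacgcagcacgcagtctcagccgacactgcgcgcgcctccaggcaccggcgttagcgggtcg

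H6PD: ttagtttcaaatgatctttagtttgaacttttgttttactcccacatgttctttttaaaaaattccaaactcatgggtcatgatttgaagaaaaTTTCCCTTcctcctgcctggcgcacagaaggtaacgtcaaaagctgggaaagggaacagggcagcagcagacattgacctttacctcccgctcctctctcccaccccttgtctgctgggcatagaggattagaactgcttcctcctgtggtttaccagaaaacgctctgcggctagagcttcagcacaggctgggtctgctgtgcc

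The PPCDC window, chr15:75043036-75043335 on the plus strand, belongs to a gene of coenzyme A synthesis, and its site covered 204 of the 300 bases. Its start, at 75043286, lies inside the gene, which begins at 75023590. The window holds 1 IRF core and 1 AP-1 match. The KRI1 window, chr19:10565961-10566260 on the minus strand, has 167 bases in a site, 7 GC boxes and 2 ETS matches, and KRI1 acts in ribosome assembly. NSMCE3, a subunit of the SMC5/6 complex, has its window at chr15:29269773-29270072 on the minus strand, with 233 bases in a site, 1 IRF core and 2 GC boxes. The H6PD window, chr1:9239597-9239896 on the plus strand, has 273 bases in a site and 1 IRF core, and H6PD feeds the pentose phosphate pathway of the endoplasmic reticulum. All 4 carried H3K27ac in KO, JmjD-dead and WT cells and H3K4me1 in WT cells, and of the 4 only H6PD had an H3K4me1 region in KO.

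Across the 92 windows the IRF core was found in 35, or 38.0% (28.1 to 48.8), against 19.3% of all 21942 windows of that length. The AP-1 letters were in 12.0% (6.12 to 20.4) of the windows with a site and in 6.17% of all windows, a share inside that interval. GC boxes were in 42.4% (32.1 to 53.1) against 56.3%. NFY boxes were in 37.0% against 34.7% and ETS cores in 19.6% against 21.1%, both differences lying inside the counting interval of the 92 windows. The E-box (5.43% against 8.28%), the CRE (1.09% against 2.25%) and the NRF1 letters (3.26% against 3.68%) were also inside it. In no window did an IRF core match share bases with an ETS match. Windows with a site had a median GC content of 55.2%, against 62.3% for all windows, and the part of base composition in the motif shares was not tested.

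The sites were short and their signal moderate. Their width had a median of 384 bp and ranged between 200 and 2041 bp. In the authors' values the pileup at the summit had a median of 11 tags (5 to 99) in the ARP1 KDM6A library and a fold enrichment of 6.38 (3.19 to 53.2). The HA-tagged regions they touched had a median fold of 8.36 and the KARPAS regions one of 7.69. These levels follow the selection, and depth differed between the libraries, whose part in them was not tested. The ARP1 WT KDM6A library held 11.9 M tags (M, units of 1000000) after filtering and the KARPAS one 37.4 M.

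The limits of the rule touched few sites. The shared stretch had a median of 342 bp with the HA region and 320 bp with the KARPAS region, and was under 50 bp at 33 and 37 sites. Only 9 sites had a KDM6A region of KO cells less than 50 bp away. Just outside the rule, 15 WT-only regions on an HA-tagged-only region had a KARPAS region less than 50 bp away, and 15 on a KARPAS region had an HA-tagged-only region that close. A further 1368 regions met the HA and KARPAS conditions but overlapped a KO region, 9 of them by less than 50 bp. HA-tagged-only regions at the sites numbered 3486, 12.4% of that set, and KARPAS regions 3507, 6.28% of that list. Input DNA gave no region at 3539 of the 3548 sites. The input libraries held only 0.725 (KO), 0.223 (JmjD-dead) and 0.384 M fragments (WT) after filtering. At that depth a missing input region does not show that a site is free of background. A further 31 sites touched a region of the WT HA list that did not reach their HA-tagged region.

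Depth after the authors' filtering, in M fragments, was 25.6 (KO), 31.2 (JmjD-dead) and 30.8 (WT) for H3K27ac, 6.60, 10.4 and 5.03 for H3K27me3 in the same genotypes, and 25.6 (KO) and 34.0 (WT) for H3K4me1. H3K27ac lists were alike in length, with 76242, 74063 and 69127 regions in KO, JmjD-dead and WT cells. As a check of the cell type, WT H3K27ac lay within 1 kb of a start of the plasma cell genes IRF4, PRDM1, XBP1, SDC1 and CD38, all 5 of the 8 markers with a start in the RefSeq table. It lay at 1 of 2 B cell markers (PAX5), and at none of 3 T and NK, 2 myeloid or erythroid and 1 epithelial or stromal markers with a start.

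Most sites lay away from gene starts. A start was within 1 kb of 169 sites, 4.76% (4.09 to 5.52). The RefSeq table gives starts for 15811 of 19970 protein-coding genes and for none on chromosome 8, so this is a floor. Within 2.5 kb of a start lay 7.84% and within 250 bp 2.73%. The other regions absent from KO gave 0.648% and the regions shared with KO 0.564%. Of the regions seen with HA-tagged but not in KARPAS 1.65% had a start that close, and of those seen in KARPAS but not with HA-tagged 2.29%. The median distance to a start was 49.1 kb at the sites, 90.1 kb at the HA-tagged regions not in KARPAS and 986 kb at the regions found in neither. Between these classes the sites were the nearest to starts, and still 49.5% (47.8 to 51.1) of them counted as over 50 kb away. This includes all 217 sites on chromosome 8, where no start was listed. The share and the medians of all classes are therefore ceilings. Gene bodies held 51.5% (49.8 to 53.2) of the sites, against 19.8% of the other regions absent from KO. In the closest class, HA-tagged but not in KARPAS, they held 47.1% (45.9 to 48.3), so this was not particular to the sites. In each of the 10 deciles of KDM6A rank the share with a start within 1 kb was higher at the sites than at those other regions.

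**Figure D1:**
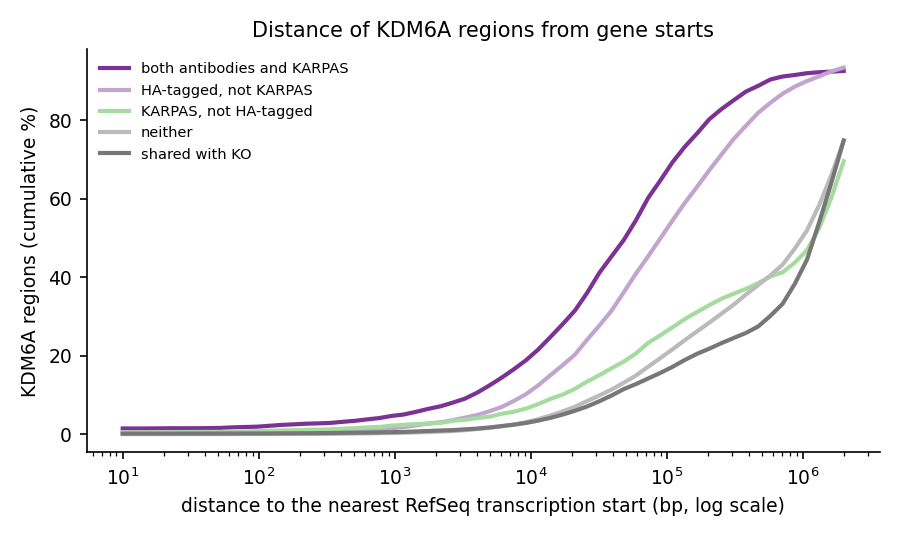
Cumulative share (%) of KDM6A regions of ARP1 WT within a given distance (bp, log scale) of the nearest RefSeq transcription start, 1 line per class of region. The line of the 3548 sites lies left of the other lines up to about 1 Mb, with a median of 49.1 kb. Regions on chromosome 8, where no start was listed, are counted but lie beyond the plotted distances.

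Most sites carried active enhancer marks in WT cells. H3K27ac lay on 3009 sites, 84.8% (83.6 to 86.0), and H3K4me1 on 3134, 88.3% (87.2 to 89.4). Both marks were present at 2941 sites, 82.9%, while 68 had H3K27ac alone, 193 H3K4me1 alone and 346 neither. Of the 169 sites near a start 164 held both marks. Other regions absent from KO held H3K27ac in 18.6% and H3K4me1 in 25.1%. Weighted to the KDM6A ranks of the sites, those shares became 27.03% and 35.2%.

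Shares of marks differed between the classes the rule separates. HA-tagged regions not in KARPAS held H3K27ac in 72.9% (71.9 to 74.0), KARPAS regions not with HA-tagged in 33.2%, regions in neither in 9.58% and regions shared with KO in 27.7%. H3K4me1 followed the same order over the first 3 of these classes, at 76.9%, 45.9% and 15.8%, with 37.5% in the shared regions. Overlap with the HA list of WT cells, the background of the tagged line, was partly set by the rule. HA-tagged regions touching that list were removed, so low overlap in the classes with HA-tagged follows from selection. The overlap was 0.874% at the sites and 1.93% at HA-tagged regions not in KARPAS. It was 70.0% at KARPAS regions not with HA-tagged, 50.9% at regions in neither and 79.5% at regions shared with KO. The part of that overlap in the shares of marks was not tested. Over deciles of KDM6A rank, 1 being the strongest, the H3K27ac share of the sites was highest in decile 2 at 90.2% (87.2 to 92.7) and lowest in decile 9 at 76.3% (70.5 to 81.6). Among other regions absent from KO it was 56.6% in decile 1 and 10.7% in decile 10, with its lowest value, 9.46%, in decile 8.

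**Figure D2:**
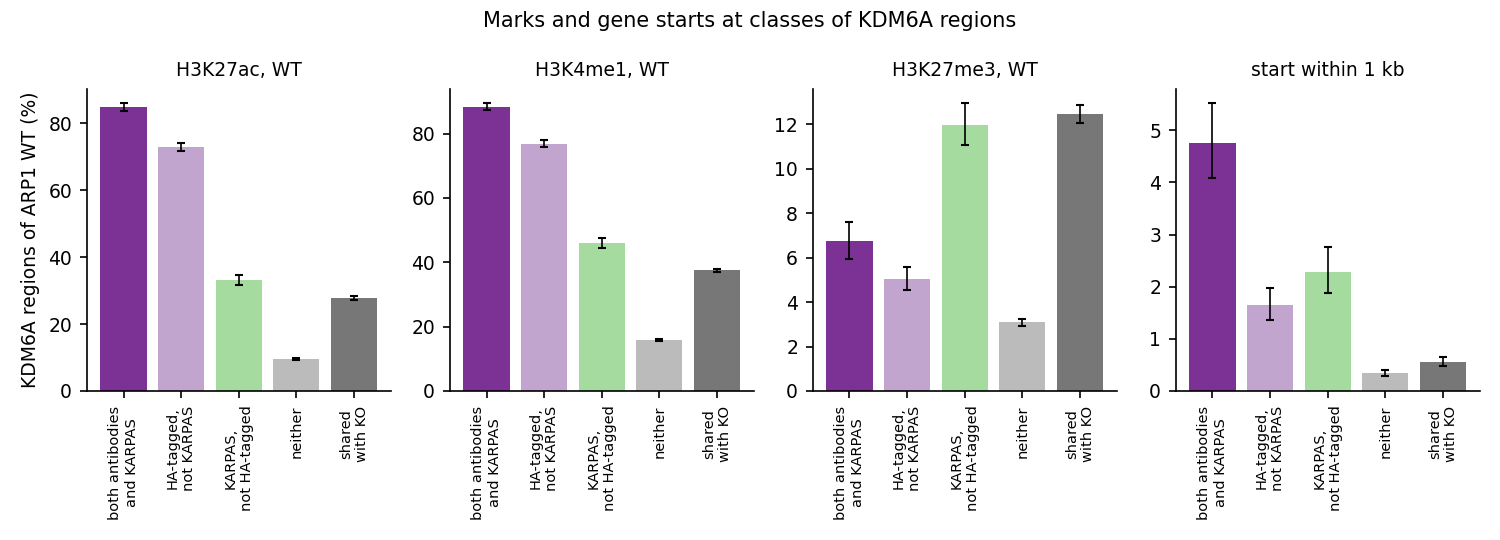
Share (%) of KDM6A regions of ARP1 WT that overlap an H3K27ac, H3K4me1 or H3K27me3 region of WT cells or have a start within 1 kb, by class, with exact 95% intervals of counting as bars. The 3548 sites have the tallest bar for H3K27ac (84.8%), H3K4me1 (88.3%) and starts (4.76%), but not for H3K27me3 (6.74%). The 4 panels have different vertical scales.

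Marked regions at the sites were strong and wide within their lists. The WT H3K27ac regions there had a median rank percentile of 82.7 and a median width of 2184 bp, against 487 bp for all WT H3K27ac regions. For H3K4me1 the median percentile was 85.9 and the median width 1868 bp, against 300 bp. A wide region is touched more readily than a narrow one, and the part of width in the shares was not tested. H3K27me3 lay on 239 sites, 6.74% (5.93 to 7.61), against 4.01% of other regions absent from KO and 6.69% of them at equal KDM6A rank. Of the 239 sites 224 also held H3K27ac, so only 15 sites carried H3K27me3 alone of these marks on lysine 27. Stricter regions (−log10 q of at least 5) gave 1.89%, a 50% overlap 2.18% and the 200 bp around the summit 3.08%.

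H3K27ac stayed listed at most sites in both mutants. In KO cells 245 of the 3009 sites on WT H3K27ac, 8.14% (7.19 to 9.18), had no H3K27ac region, where 29.3% of other regions absent from the KO KDM6A list had none. In JmjD-dead cells 205 of the 3009, 6.81% (5.94 to 7.77), had none, where the share elsewhere was 21.9%. The closest class, HA-tagged but not in KARPAS, lay between, with 15.8% (14.8 to 16.9) for KO and 9.66% (8.85 to 10.5) for JmjD-dead cells. Both mutants were set against the same WT library. With 50% overlap required of the WT region but 1 bp of the mutant region, the shares were 3.91% (KO) and 3.51% (JmjD-dead). These unequal limits favour a lower share by construction. With a mutant region anywhere on the WT region the shares were 5.65% and 4.05%. With only the 200 bp around the summit they were 11.1% and 9.75%. Sites with no listed start within 1 kb had none in 241 of 2845 cases in KO (8.47%, 7.47 to 9.56) and 202 of 2845 for JmjD-dead cells. Sites near a start had none in 4 of 164 (2.44%, 0.668 to 6.13) and 3 of 164 (1.83%, 0.379 to 5.25).

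Retention followed the rank of the WT region. By region, 242 of the 3159 WT H3K27ac regions at the sites had no KO region (7.66%, 6.76 to 8.64), against 31.2% of the other WT regions and 30.1% of the whole list. In JmjD-dead cells 175 of 3159 had none (5.54%, 4.77 to 6.40), against 28.8% of the others and 27.7% of the list. When the other regions were weighted to the WT ranks found at the sites, their shares were 9.04% for KO and 6.95% for JmjD-dead cells. The remaining differences were −1.38 and −1.41 percentage points, lower at the sites. In KO the sites had the lower share in 9 of 10 rank deciles and in JmjD-dead cells in 7, with 2 higher. None of the 829 regions at the sites in the top decile was without a mutant region, in either mutant, and neither was any of the 6083 others. Most of the gap between the sites and the rest of the list was thus matched by rank.

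**Figure D3:**
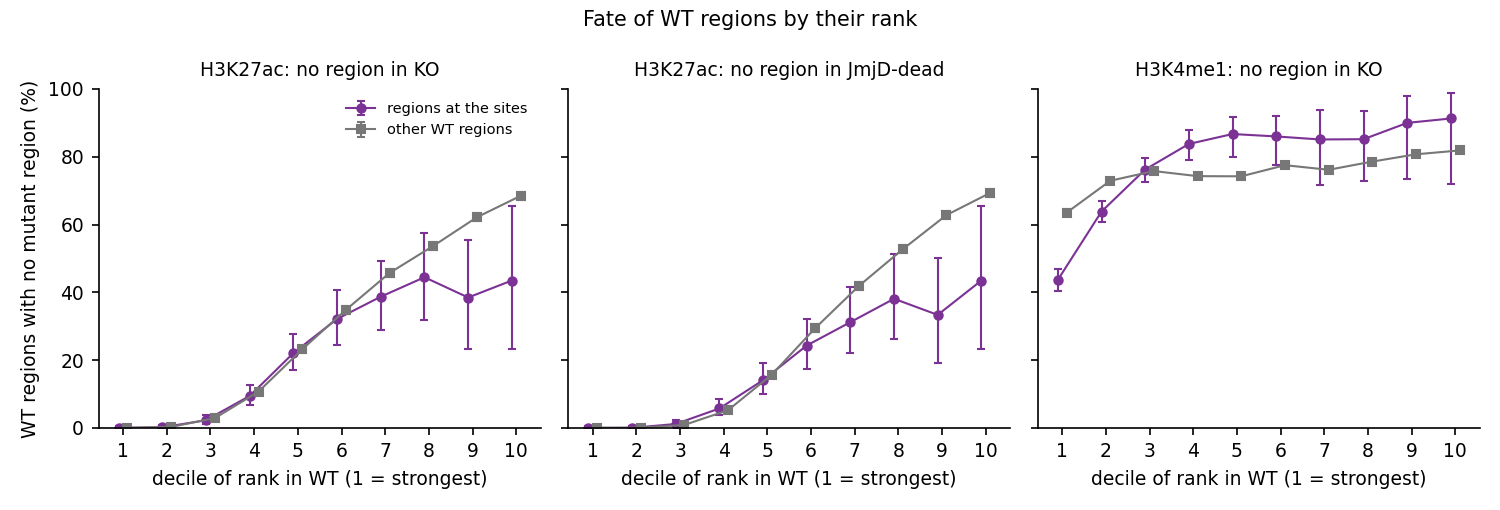
Share (%) of WT regions without an overlapping region in the mutant, by decile of rank in the WT list (1 is the strongest), for H3K27ac in KO, H3K27ac in JmjD-dead cells and H3K4me1 in KO. Circles are WT regions at the sites and squares all other WT regions, with exact 95% intervals of counting. For H3K27ac the circles lie near the squares down to decile 6, and for H3K4me1 they lie below in deciles 1 and 2 and above from decile 3 on.

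The amount of H3K27ac around the sites was measured as base pairs covered by regions within 2 kb of the middle of each site. Over the 3201 sites with any cover in WT, the median was 2100 bp in KO and 2350 bp in WT, with a median difference of −128 bp, and cover was smaller in KO at 1894 sites and larger at 1085. In JmjD-dead cells the median was 2180 bp against the same 2350 bp, with a median difference of −98 bp, smaller at 1874 sites and larger at 1102. Other regions absent from KO had median differences of −153 bp for KO and −56 bp for JmjD-dead cells, so a lower cover was not particular to the sites. Whole lists covered 73.6 Mb in KO, 69.9 Mb in JmjD-dead and 71.0 Mb in WT cells.

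Of the 539 sites without H3K27ac in WT, 100 held a KO region (18.6%, 15.4 to 22.1) and 105 in JmjD-dead cells (19.5%, 16.2 to 23.1). Other regions absent from KO and unmarked in WT held one in 5.1% and 6.93%. In the closest class, HA-tagged but not in KARPAS, H3K27ac lay on 4438 (KO), 4817 (JmjD-dead) and 4950 (WT) of 6787 regions. Of those 4950, 783 had none in KO and 478 none in JmjD-dead cells. By these counts newly marked regions were frequent in that class too, so the excess was not particular to the sites. With 50% overlap required of the selecting regions and the WT mark, but 1 bp of the mutant mark, 1068 sites counted as unmarked in WT. The shares at these were 51.8% and 55.1%, and the unequal limits raise them by construction. In all, H3K27ac lay on 80.7% of the sites in KO, 82.0% in JmjD-dead and 84.8% in WT cells.

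H3K4me1 was listed at few sites in KO cells. It lay on 490 sites in KO, 13.8% (12.7 to 15.0), against 3134 in WT, 88.3%. Of those 3134 sites 2696, 86.0% (84.8 to 87.2), had no region in KO, where 71.5% of other regions absent from the KO KDM6A list had none. The closest class, HA-tagged but not in KARPAS, had the higher share, 91.8% (91.0 to 92.5). Of the 166 marked sites near a start 153 had none. By region the order was the other way, with 2099 of 3247 WT regions at the sites lacking a KO region (64.6%, 63.0 to 66.3) against 75.7% of the others and 75.3% of the list. The regions at the sites were wide, and a KO region anywhere on them counts in this measure. At equal WT rank the others stood at 71.2%, and the sites were lower in deciles 1 and 2 and higher in the remaining 8.

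The KO H3K4me1 library stood apart as a whole. Its regions covered 37.9 Mb with a median width of 220 bp, against 71.8 Mb and 300 bp in WT. In KO 25.5% of its regions lay on a WT H3K27ac region, against 59.8% of the WT H3K4me1 regions. Of its regions 24.7% lay on the KDM6A list of KO cells, against 11.7% of the WT H3K4me1 regions. The rule removes the KDM6A list of KO cells, and among KDM6A regions shared with KO only 21.4% (20.6 to 22.2) lacked H3K4me1 in KO. The H3K4me1 difference at the sites therefore cannot be told apart from the make-up of that library and of the rule.

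**Figure D4:**
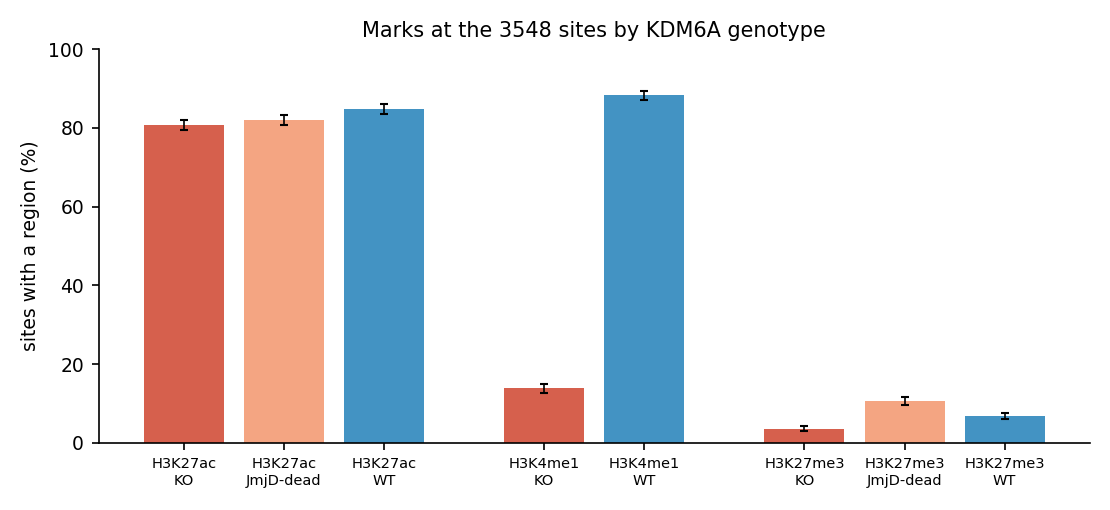
Share (%) of the 3548 sites that overlap a region of each mark in KO, JmjD-dead and WT cells (H3K4me1 in KO and WT only), 1 library each, with exact 95% intervals of counting. H3K27ac bars lie between 80.7% and 84.8%, H3K4me1 stands at 13.8% in KO against 88.3% in WT, and H3K27me3 reaches at most 10.6%.

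H3K27me3 was sparse at the sites in every genotype. It lay on 127 sites in KO (3.58%, 2.99 to 4.24), 375 in JmjD-dead (10.6%, 9.58 to 11.6) and 239 in WT cells (6.74%). The lists held 11865, 37236 and 17355 regions in the same genotypes and so moved in the same order. Of the 239 sites marked in WT 190 had none in KO (79.5%, 73.8 to 84.4), against 68.4% of other regions absent from KO. In JmjD-dead cells 139 had none (58.2%, 51.6 to 64.5), against 35.7%. HA-tagged regions not in KARPAS had shares of 83.3% (79.0 to 87.1) for KO and 55.0% (49.5 to 60.3) for JmjD-dead cells. By region, a mutant region anywhere on the WT region counts. In this measure 178 of the 238 WT regions at the sites had none in KO (74.8%, 68.8 to 80.2). The other WT regions stood at 74.8%, as did the whole list. In JmjD-dead cells 117 of the 238 had none (49.2%, 42.6 to 55.7), against 52.5% of the others and 52.4% of the list. Other regions absent from KO held H3K27me3 in 3.18% (KO), 12.3% (JmjD-dead) and 4.01% (WT), the same order as at the sites. Of the 3309 sites unmarked in WT 78 held a KO region, and 275 a JmjD-dead region.

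A protein-coding gene lay within 10 kb of 2236 sites (63.0%), and 1312 sites had none. In all 1883 genes, 9.43% of 19970, had a site in the body or within 10 kb. Such genes were longer, with a median of 72663 bp against 21910 bp for genes without a site. Of the genes with WT H3K27ac in the body 13.4% had a site, and of the 6811 genes without it 115 (1.69%) had. IL19, which encodes a cytokine of the interleukin 10 family, had 8 sites. NSMCE2, MAML2, a coactivator of Notch, and RAD51B had 7 each. IKZF3, RUNX1, STIM1, ATXN1, SAMD12 and PTPRG had 6, in genes of 107 to 736 kb. Sites also came in runs, with 386 runs of sites less than 12.5 kb apart holding 871 sites, 24.5% of all. The longest runs held 7 sites at VXN, 6 at the chemokine genes CCL13 and CCL1 and 5 at BST1 and CD38, whose genes adjoin on chromosome 4.

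Sites lay near genes of all 14 lists except T and NK and myeloid and erythroid markers. Counts per list are small and intervals wide, and longer genes offer more room for a site. Plasma cell genes had a site in 6 of 20 (30.0%, 11.9 to 54.3), and genes of Ikaros factors, oncogenes and survival in 5 of 19 (26.3%, 9.15 to 51.2). Immune ligand and adhesion genes had one in 6 of 26 (23.1%, 8.97 to 43.6), B cell genes in 4 of 20 and MHC class II genes in 3 of 16. The interval of every list but the plasma cell one included the 9.43% of all genes. All 20 plasma cell genes held WT H3K27ac in the body, and the 13.4% of such genes with a site lies inside the interval of that list too. Polycomb genes had 3 of 20, housekeeping genes and genes of the unfolded protein response 2 of 20 each, and interferon-stimulated genes 2 of 29. MHC class I genes had 1 of 21, genes of KDM6A and its COMPASS partners 1 of 17, and epithelial and stromal markers 1 of 14. T and NK markers and myeloid and erythroid markers had 0 of 14 each, which allows a share of up to 23.2% in either. Median lengths of the list members ran between 5881 bp for class I and 59869 bp for the Ikaros, oncogene and survival list.

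**Figure D5:**
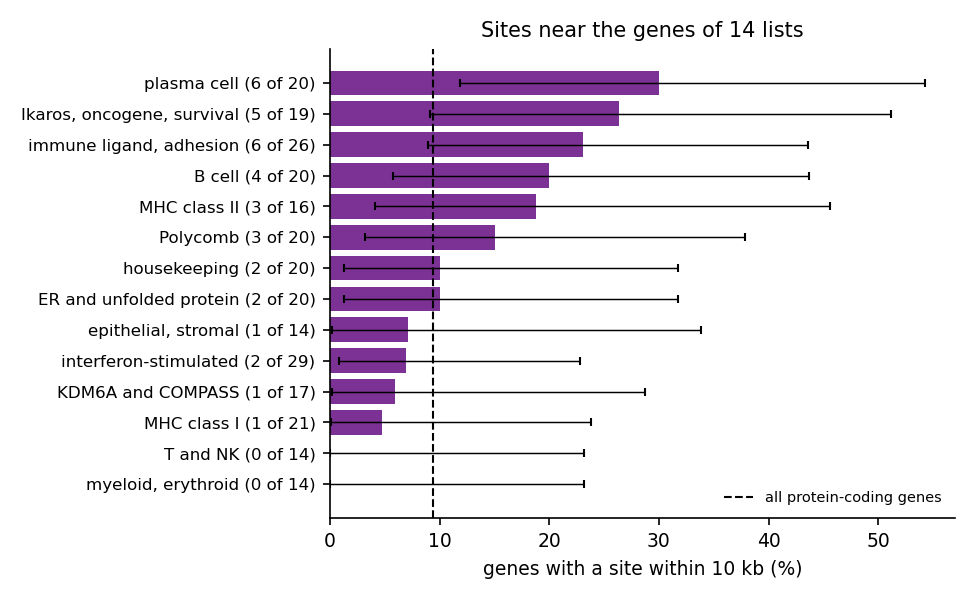
Share (%) of the genes of each of 14 lists with a site in the body or within 10 kb, with exact 95% intervals of counting, and a dashed line at the 9.43% of all protein-coding genes. Plasma cell genes have the highest share (6 of 20), and T and NK and myeloid and erythroid markers have none.

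CD38, the surface enzyme targeted by myeloma antibodies, had 3 sites. The first covered its start, on chromosome 4 at 15778111 to 15778511, and the next lay at 15778828 to 15779336 with folds of 11.7 for KDM6A, 9.75 for HA-tagged and 20.2 for KARPAS. H3K27ac covered 1087 bp around that second site in KO, 2618 bp in JmjD-dead and 2326 bp in WT cells. The third, at 15781703 to 15782111, had an H3K27ac region in JmjD-dead and WT cells and none in KO. Its folds were low, at 4.18 for HA-tagged and 3.45 for KARPAS. The WT H3K27ac region there had a fold of 7.45 and rank 27206 of 69127. In that rank decile 10.7% of WT regions away from the sites had no KO region. ELL2, an elongation factor used for immunoglobulin secretion, had 3 sites that all lay in 1 H3K27ac region in each genotype. TNFRSF17, which encodes BCMA, had 1 at chromosome 16, 11966233 to 11966568, in a window filled by H3K27ac in all 3 genotypes. DERL3, a factor of protein degradation from the endoplasmic reticulum, had 1 with an HA-tagged fold of 38.7. CD79A and SEC11C had 1 each with H3K27ac in all genotypes.

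IKZF3, the lymphoid factor Aiolos degraded by lenalidomide, had 6 sites, and IKZF1 (Ikaros) had 1. All 7 held H3K27ac in KO, JmjD-dead and WT cells. The strongest site of IKZF3, on chromosome 17 at 39819332 to 39819684, had folds of 14.9 for KDM6A, 6.96 for HA-tagged and 18.3 for KARPAS. BCL2, the inhibitor of apoptosis, had 4 sites with H3K27ac in every genotype, 3 of them within 1 H3K27ac region far into the gene. IL6R, the interleukin 6 receptor, had a site 2.01 kb from its start with H3K27ac in every genotype. The site of CCND3 (cyclin D3) had H3K4me1 in KO and WT and no H3K27ac.

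CIITA, the transactivator of MHC class II genes, had 3 sites, and 1 of them was among the 20 that ranked highest in all selecting lists. That site, on chromosome 16 at 10881351 to 10882023, had folds of 13.8 for KDM6A, 14.6 for HA-tagged and 22.5 for KARPAS. H3K27ac covered 2924 bp around it in KO, 1320 bp in JmjD-dead and 2204 bp in WT cells. The site at 10876944 to 10877198 had 2055, 2162 and 3234 bp in the same genotypes, and the one at 10871125 to 10871345 had 1211 bp in KO, none in JmjD-dead and 1256 bp in WT cells. Cover at CIITA was thus lowest in JmjD-dead cells at 2 of its 3 sites. HLA-DMA and HLA-DMB, which help load class II molecules, shared 1 site on chromosome 6 at 32944302 to 32944697, with H3K4me1 in WT as its only mark.

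NLRC5, the transactivator of MHC class I genes, had 4 sites in a run from 57039111 to 57062682 on chromosome 16, all inside the gene. The site with the highest KDM6A fold, 16.5 at 57049658 to 57050058, had no H3K27ac region in KO, and cover around it was 215 bp in KO, 1301 bp in JmjD-dead and 1145 bp in WT cells. The WT region there was weak, with a fold of 5.21 and rank 38919 of 69127. In that rank decile 34.8% of WT regions away from the sites had no KO region. The other 3 held H3K27ac in all genotypes, with cover of 2929 to 3438 bp (KO), 3293 to 3840 bp (JmjD-dead) and 2975 to 3858 bp (WT). All 4 had H3K4me1 in WT and none in KO. No other gene of the class I list had a site, and the KDM6A gene had none.

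BTLA, an inhibitory receptor of lymphocytes, had 2 sites with H3K27ac in every genotype. Around the site at chromosome 3, 112482632 to 112482985, H3K27ac covered 238 bp in KO, 660 bp in JmjD-dead and 2568 bp in WT cells. CD48, a ligand of the receptor CD244, had a site over its start, with 2190 bp in KO, 3270 bp in JmjD-dead and 3676 bp in WT cells. Both sites of CD44, the hyaluronan receptor, had no H3K27ac in KO and held it in JmjD-dead and WT cells. The WT regions there had folds of 5.96 and 6.70. In their rank decile 23.2% of WT regions away from the sites had no KO region. ITGB7, an integrin chain used for homing to bone marrow and gut, and HHLA2, a B7 family ligand, had 2 sites each in windows filled by H3K27ac in all genotypes. ICAM2 had 2 short sites under 1 HA-tagged and 1 KARPAS region, marked throughout.

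Among B cell factors, the site in EBF1 had H3K27ac in WT, covering 621 bp, and none in either mutant. That WT region was weak, with a fold of 4.84 and rank 44168 of 69127. Among WT regions away from the sites in its rank decile, 45.7% had no KO region and 41.9% no JmjD-dead region. BACH2 and SPIB had sites with H3K27ac throughout. IFIT3, an interferon-induced gene, had 2 sites at its start, with H3K27ac cover around the first of 1630 bp in KO, 3195 bp in JmjD-dead and 1655 bp in WT cells. ISG20 had 1 site with H3K27ac throughout. JARID2, a partner of Polycomb complex 2, had 3 sites, and 1 of them, at chromosome 6, 15433227 to 15433623, had no H3K27ac region on it in KO. Cover around that site was still 2214 bp in KO, 2466 bp in JmjD-dead and 2720 bp in WT cells. Its HA-tagged fold of 3.13 equalled the lowest at the sites. PHF19 had a site with H3K27ac throughout and the CBX8 site held none of the marks in any genotype. SEL1L, ERN1, LDHA, KMT2B and PECAM1 had sites with H3K27ac in all 3 genotypes. PECAM1 is listed as an endothelial marker and is also made by leukocytes.

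The 20 highest ranked sites with a gene in reach all held H3K27ac in KO, JmjD-dead and WT cells and H3K4me1 in WT, and H3K4me1 in KO at MYO5C, LASP1 and CRYL1 only. MYO5C, an unconventional myosin, led with folds of 22.3 for KDM6A, 28.6 for HA-tagged and 39.3 for KARPAS on chromosome 15 at 52221588 to 52222185. H3K27ac covered 1261 bp around it in KO, 2227 bp in JmjD-dead and 2442 bp in WT cells. MRTFA, a coactivator of serum response factor, had cover of 3893, 3617 and 3642 bp in the same genotypes, and TNFAIP8, a regulator of cell death, 3544, 3625 and 4001 bp. The others were BBS4, SNTB1, LASP1, RGL1, CIITA, NCOA2, ADD3, SUN1, KCNN4, GAB1, RABGAP1L, CRYL1, HECW1, ZNG1C, TPD52, PPCDC and SETBP1. ZNG1C belongs to a family of near-identical copies, so its site is uncertain. The site nearest KCNN4, a calcium-activated potassium channel, had 4001 bp in KO, 3193 bp in JmjD-dead and 4001 bp in WT cells.

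Sites with WT H3K27ac and no region at the site in either mutant were led by ANO6, a phospholipid scramblase, RIN2, DPYSL2, FAM193A, GRM3, GFOD1, LILRA2, PRKCH, SLC9A7 and TLR1. Their order follows the rank of the WT H3K27ac region. At the ANO6 site the mutants still had cover nearby, with 1900 bp (KO), 1361 bp (JmjD-dead) and 2215 bp (WT). Cover also remained at RIN2 (1267, 1388 and 2256 bp in the same order), DPYSL2 (1323, 1336 and 1566 bp) and FAM193A (1131, 980 and 1597 bp). Less was left at GRM3 (392, 208 and 1079 bp), GFOD1 (259, 724 and 2553 bp) and SLC9A7 (180, 0 and 1073 bp). At LILRA2, a leukocyte immunoglobulin-like receptor, the site covered the start, on chromosome 19 at 54573511 to 54573862, and KO and JmjD-dead cells had no cover, against 1214 bp in WT cells. At PRKCH, a protein kinase C, it was 0 bp (KO), 188 bp (JmjD-dead) and 1828 bp (WT). TLR1, a Toll-like receptor, had 221 bp (KO), 435 bp (JmjD-dead) and 2478 bp (WT). These sites had modest KDM6A folds, between 3.72 at ANO6 and 7.44 at DPYSL2, and the WT H3K27ac fold there lay between 9.31 and 28.3.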

How the data were processed

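Lists of enriched regions from 16 human libraries, 1 per group, were used out of 20; the 4 mouse libraries were not analysed here. The submitters' processing notes name GRCh38 as the build and, as tools, Bowtie2, MACS2 2.1.2, Trimmomatic, MultiQC and FastQC. Per the file headers, regions were called by MACS 2.2.7.1 (input, H3K27ac, H3K27me3) or 2.1.1.20160309 (the others), library by library, with no control, at a q-value of 0.05, and with fragments of 200 bp set for the KDM6A and HA tags. A gain of DNA copies can therefore give regions. The deposited columns are the pileup (a signal), the −log10 of the p-value and of the q-value, and the fold over background (a ratio), as the authors' caller gave them, which served to rank or filter within a list only.

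Rows with the same coordinates were merged as summits of 1 region. Regions overlapped at 1 bp or more. A mark was present where a region overlapped the site, so a weaker region counts as present. Genes and starts came from RefSeq GRCh38.p14. Comparisons at equal rank weighted deciles to the sites. With 1 library per group no test was run. The sites, gene lists and named-gene rules were chosen with earlier results of these data known. Genes were named as the 20 highest sites by the lowest of the 3 percentile ranks, the 10 sites with the highest WT H3K27ac rank and none in both mutants, up to 6 per list, and KDM6A, NLRC5 and CIITA. Work was done in Python 3.11.15 (scipy 1.17.1, pandas 2.3.3, numpy 2.4.6, matplotlib 3.10.9), and the overlap functions were tested on simulated data with 6 of 6 steps passed. The alternatives were stricter regions, 50% overlap, summits, removal of sites on input, on the WT HA list, in 193 dense 1 Mb bins or on chromosomes 2 and 11, equal list lengths and other windows. A small number of named genes is not reported here.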

Additional observations from a re-analysis of the deposited data

Results flagged for a closer look

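H3K27me3 at the 3548 sites lay on the opposite side of WT in the mutants. The share of sites with a region was 3.58% in KO against 6.74% in WT cells, a difference of −3.16 percentage points, and 10.6% in JmjD-dead against 6.74% in WT cells, a difference of 3.83 points. Other KDM6A regions absent from KO had the same order, with 3.18% (KO), 12.3% (JmjD-dead) and 4.01% (WT), so the pattern was not particular to the sites. Each genotype had 1 library and the difference between the mutants was not tested. The KO list held 11865 regions, the JmjD-dead list 37236 and the WT list 17355, from 6.60, 10.4 and 5.03 M fragments (M, units of 1000000), and the part of list length and depth in the shares was not tested.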

How the results depend on the processing

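With −log10 q of at least 5, the share without H3K27ac was 4.80% in JmjD-dead, newly marked sites were 24.6% in JmjD-dead, WT H3K27ac was 87.3%, WT H3K27me3 1.89%, and sites without H3K4me1 and H3K27me3 in KO were 96.0% and 67.4%. In another setting 50% overlap of the shorter region was required of the HA-tagged, KARPAS and WT mark regions, while mutant marks still needed 1 bp. Sites without H3K27ac were then 3.91% in KO and 3.51% in JmjD-dead, and newly marked ones 51.8% and 55.1%. WT H3K27ac, H3K4me1 and H3K27me3 lay on 68.1%, 77.5% and 2.18%. With 200 bp around the summit, sites without H3K27ac were 11.1% in KO and 9.75% in JmjD-dead, without H3K4me1 in KO 92.4% and without H3K27me3 in JmjD-dead 65.4%, and the WT marks in the order above lay on 78.2%, 83.9% and 3.08%. Without dense bins WT H3K27ac and H3K4me1 lay on 87.4% and 90.6%. With equal list lengths sites without H3K27me3 in JmjD-dead were 72.8%. Counting a mutant region anywhere on the WT H3K27ac region gave 5.65% in KO and 4.05% in JmjD-dead. Starts lay within 2.5 kb of 7.84% and within 250 bp of 2.73%, and either gene end within 2.5 kb of 10.1%, an alternative chosen after seeing the data. Within 50 kb of a site lay 3728 genes. The cause of these moves was not tested, other than the wider or narrower windows and the unequal overlap limits, which move values by their construction.

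The remaining 76 of 105 values stayed within the counting interval or, for counts of sites and genes, within 1.5 times, and the number of sites lay between 2435 and 3539. No paired analysis was possible because each group had 1 library and the labels carry no replicate numbers. Depth lay between 5.03 and 10.4 M fragments for H3K27me3 and between 11.9 and 37.4 M tags for KDM6A, and its part in which regions are listed was not tested.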
